A study of Vitis vinifera with 2 samples.

Results

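A set of 130 windows of 1 kb in the grapevine methylome was both very deeply read and methylated at CG cytosines in the autotetraploid and in the diploid 'Jingyanjing'. The windows were chosen on a grid of 1 kb steps along all sequences in the files. A window was eligible when it held at least 50 cytosines listed for both lines, at least 5 of them CG, and 370943 windows were eligible. It was counted as a deep CG-methylated window when its mean depth was 60 reads or more in 4X and in 2X and its CG level over both lines was 50% or more. The methylation level is the share of reads at a cytosine that were still read as cytosine after bisulfite treatment, and the mean depth is the mean number of reads over the shared cytosines of a window. The 130 windows were 0.0350% of the eligible windows and 25.4% of the 511 windows that reached the depth minimum. The other 381 deep windows had a CG level under 50%. Depth and CG level therefore chose the windows, and both are given below as a description with no test.

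The study set the tetraploid line (4X), an autotetraploid that colchicine treatment of tissue-cultured stems had produced from the diploid Vitis vinifera cultivar 'Jingyanjing', against that diploid (2X). Both lines grew in the same vineyard. DNA for whole-genome bisulfite sequencing came from terminal buds of 3 vines per line, pooled within the line, and was collected 1 week before the 4X buds were shed. Each line gave 1 library, so there were no replicates, every comparison sets 1 library against 1 library, and intervals cover counting error only. The vines of both lines were planted in the same year, their age at sampling is not stated in the sources used here, and 4X and 2X shared the cultivar background. The 4X file listed 107953697 cytosines at a mean depth of 11.9 reads, and the 2X file listed 109144737 at 12.9 reads. The median eligible window had a mean depth of 11.3 reads in 4X and 12.3 reads in 2X, and the median 4X to 2X depth ratio of eligible windows was 0.914.

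In plants, cytosines are methylated in 3 contexts, CG, CHG and CHH, where H is any base except G. CG methylation is copied onto the new strand by MET1, CHG methylation by CMT3 together with the histone mark H3K9me2, and CHH methylation is set anew by RNA-directed DNA methylation (DRM2) or by CMT2. Transposons and satellite repeats usually carry methylation in all 3 contexts, whereas gene bodies usually carry it in CG alone. When an assembly holds fewer copies of a repeat than the genome does, reads from the missing copies pile up on the copies present, so that a window can be read many times more deeply than the rest. How many copies stood behind each window was not measured here, and reads from several copies share 1 position in the files.

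Just inside and just outside the thresholds the depths were close together, and the CG levels were further apart. The lowest depths inside were found at 35013001 to 35014000 of the sequence named Un, with 60.3 reads in 4X and 68.6 in 2X, and at 4074001 to 4075000 of chromosome 15, with 60.5 in 4X and 69.5 in 2X. Just outside, the window at 12462001 to 12463000 of chromosome 19 had 59.97 reads in 4X and 61.9 in 2X, and that at 3308001 to 3309000 of the sequence 18_random had 59.95 in 4X and 70.4 in 2X. The lowest CG levels over both lines inside were 51.4% at 36759001 to 36760000 of Un and 56.0% at 8692001 to 8693000 of chromosome 16. Just outside, 40644001 to 40645000 of Un had 41.5% with 5466 reads of mean depth in 4X and 5522 in 2X, and 13709001 to 13710000 of chromosome 19 had 39.4% with 64.0 reads in 4X and 65.5 in 2X. The CG threshold thus fell in a gap of the deep windows between 41.5% and 51.4%, whereas the depth threshold fell in a continuous range.

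The deep CG-methylated windows were read about 7 times as deeply as the median window in both lines. Their median depth was 82.3 reads in 4X and 88.8 in 2X, which was 7.27 times the depth of the median eligible window in 4X and 7.20 times in 2X. The depths spanned 60.3 to 3790 reads in 4X and 60.7 to 3531 in 2X. The lower of the depths in the 2 lines was under 80 reads in 65 windows, 80 to under 100 in 23, 100 to under 200 in 27, 200 to under 500 in 8, and 500 or more in 7. The 130 windows took 0.509% of all base calls in shared cytosines of eligible windows in 4X and 0.457% in 2X. Many of the windows thus lay near the depth minimum, with 65 of 130 under 80 reads, and a few were far deeper.

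The deepest windows adjoined each other on Un. The window at 22777001 to 22778000 had a mean depth of 3790 reads in 4X and 3531 in 2X, which was 335 times the median window in 4X and 286 times in 2X. Its neighbour at 22776001 to 22777000 had 1961 reads in 4X and 1720 in 2X. The CG level of the deepest window was 91.2% in 4X and 90.6% in 2X, its CHG level was 69.5% in 4X and 68.5% in 2X, and its CHH level was 4.53% in 4X and 4.73% in 2X. These levels lay near the medians of the whole set, so the deepest window was not set apart by its methylation.

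Depth was uneven inside most of the windows. The coefficient of variation of depth over the cytosines of a window had a median of 0.809 in 4X and 0.815 in 2X, against 0.512 in 4X and 0.530 in 2X over all eligible windows. The median depth over cytosines reached 60 reads in both lines in 66 of the 130 windows, and was under 30 reads in both lines in 19. When each window was split into bins of 100 bp, the median window had 3 bins with a median depth of at least 60 reads. In 3 windows 9 or more bins reached that depth, in 58 windows 1 to 3 bins did, and in 8 windows none did. For many windows the mean depth therefore rested on a short stretch, not on the whole 1 kb. The CG cytosines themselves had a mean depth of at least 60 reads in both lines in 114 windows and under 30 in both in 3.

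**Figure D1:**
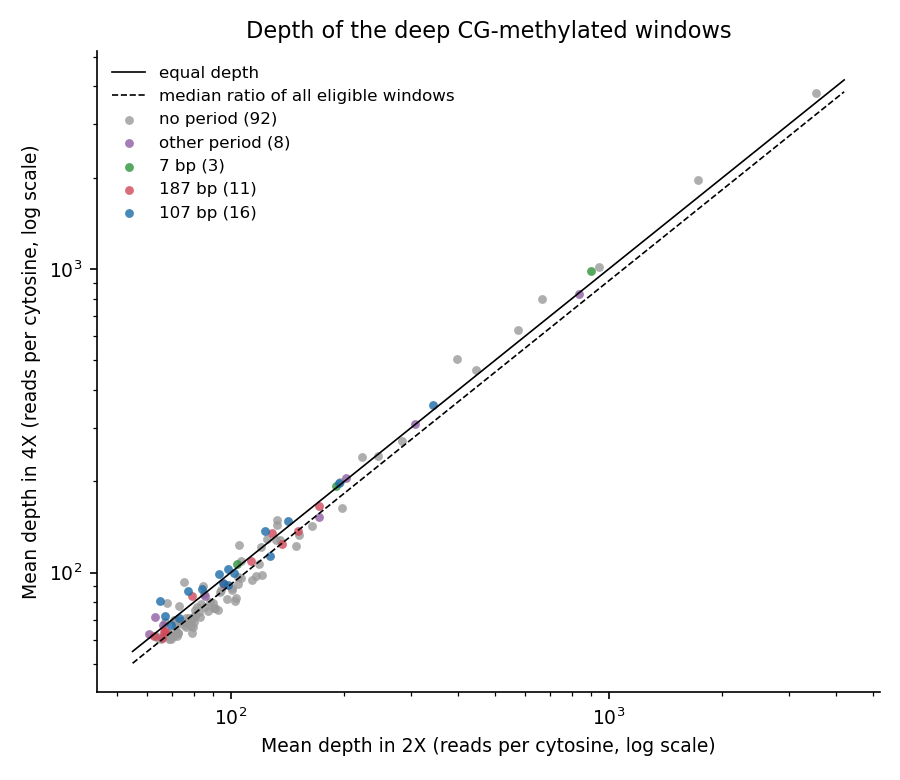
Mean depth of the 130 deep CG-methylated windows in 4X and in 2X (reads, log axes), with each window as a point and the repeat period of its listed cytosines marked by colour. The points follow a common line from 60.3 to 3790 reads in 4X, and no window departs from the median 4X to 2X ratio of all eligible windows by 1.5-fold.

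The 4X to 2X depth ratio of the deep CG-methylated windows had a median of 0.941, with quartiles of 0.887 and 1.023 and a range of 0.787 to 1.27. Divided by the median ratio of all eligible windows, 0.914, the median was 1.03 and the range was 0.860 to 1.39. None of the 130 windows passed a 1.5-fold change of this scaled ratio in either direction, a size that 2.31% of all eligible windows reached upwards and 1.74% downwards. Shallow windows have noisier ratios, so these shares are not matched on depth. The depth was higher in 4X than in 2X in 41 windows and lower in 89, and on the scaled ratio it was higher in 81 and lower in 49. Between windows the depths of the 2 lines ran together, with a Pearson r of 0.999 and a Spearman rho of 0.938 over the 130 windows. The points share libraries and mapping, and adjacent windows share reads, so these values are a description.

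The spread of the ratio was compared with that of CG-methylated windows at lower depth. Windows with a depth of 20 to under 30 reads had quartiles of 0.839 and 0.984, and those with 30 to under 60 reads had 0.841 and 0.969. The deep windows had a slightly higher pair of quartiles, 0.887 and 1.023, and the 381 deep windows with a CG level under 50% had a median ratio of 0.998. By context, the median ratio of the 130 windows was 0.945 for CG depth, 0.951 for CHG depth and 0.942 for CHH depth. The median thus hardly depended on the context.

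The windows with the highest and the lowest ratios were not the deepest. At 15611001 to 15612000 of chromosome 6 the depth was 505 reads in 4X and 396 in 2X, a ratio of 1.27. At 40645001 to 40646000 of Un it was 93.2 in 4X and 75.1 in 2X, and at 9100001 to 9101000 of chromosome 15 it was 80.4 in 4X and 64.9 in 2X, both with a ratio of 1.24. These were the windows most enriched in 4X. The lowest ratio, 0.787, was found at 15174001 to 15175000 of chromosome 13, with 80.7 reads in 4X and 102.5 in 2X. It was followed by 28952001 to 28953000 of Un, with 63.2 reads in 4X and 79.1 in 2X, and 16526001 to 16527000 of chromosome 3, with 82.7 in 4X and 104 in 2X, both at 0.799. Even the extremes therefore stayed within a 1.39-fold departure from the median ratio of all windows.

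The depth ratio moved with the number of CG cytosines in these windows. The 2 measures had a Pearson r of 0.451 and a Spearman rho of 0.491 over the 130 windows, against 0.017 and 0.024 over all eligible windows. Over all eligible windows sorted by their number of listed cytosines, the median ratio of each 10% ranged from 0.881 to 0.954. The part of cytosine number in the ratios of the deep windows was not tested.

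The deep CG-methylated windows were concentrated on Un, the sequence that collects pieces not placed on a chromosome. Un held 53 of the 130 windows (40.8%), although it held 6.69% of all eligible windows. A further 74 windows (56.9%) lay on the 19 assembled chromosomes, which held 90% of the eligible windows, and 3 lay on sequences named as random parts of chromosomes 1, 12 and 18. As a share of the windows of each kind of sequence, 0.214% of those on Un and 0.0222% of those on assembled chromosomes were deep and CG-methylated. Chromosomes 2, 15 and 17 had 8 each, chromosomes 13, 18 and 19 had 7 each, chromosome 3 had 6, and chromosomes 4 and 9 had none. On the assembled chromosomes 16 of 74 windows (21.6%) lay within 1 Mb of an end of the chromosome, where 9.46% of eligible windows lay. Gene and transposon models in the coordinates of the files were not used here, and the overlap of the windows with genes, exons, introns and annotated transposons was not analysed here.

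Sequence type and depth ratio were also compared. The median ratio was 0.974 on Un and 0.928 on assembled chromosomes. The depth was higher in 4X in 21 of 53 windows on Un and in 20 of 74 on chromosomes.

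Most of the windows stood alone. Joined where they touched, they formed 110 runs, of which 95 were 1 window, 11 were 2 windows, 3 were 3 windows and 1 was 4 windows. Another deep CG-methylated window lay within 20 kb of 59 of the 130. The longest run lay at 37597001 to 37601000 of Un, with a mean depth of 353 reads in 4X and 354 in 2X, a CG level of 91.2% in 4X and 90.8% in 2X, a CHG level of 70.9% in 4X and 70.1% in 2X, and a CHH level of 13.1% in 4X and 12.5% in 2X. Runs of 3 windows lay at 25827001 to 25830000 of Un (317 reads in 4X and 269 in 2X), 23917001 to 23920000 of chromosome 13 (108 in 4X and 127 in 2X) and 14230001 to 14233000 of chromosome 17 (109 in 4X and 105 in 2X). The deepest run of 2 windows was the pair at 22776001 to 22778000 of Un, with 2875 reads in 4X and 2625 in 2X. The ratios of these runs differed, with 1.18 in the run of 3 and 1.095 in the run of 2 windows on Un, 1.04 on chromosome 17 and 0.844 on chromosome 13. The windows of a run share reads and are not independent.

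Depth fell off within a few kb of the windows, while most of the adjoining windows that could be read were CG-methylated, much as around ordinary windows. At a distance of 1 kb before the window the median depth was 22.7 reads in 4X and 26.1 in 2X, and at 1 kb after it the median was 27.4 in 4X and 29.3 in 2X. At 5 kb before the window it was 13.6 in 4X and 14.6 in 2X, and at 5 kb after it was 14.5 in 4X and 15.99 in 2X. The median depth thus came close to that of the median window, 11.3 reads in 4X and 12.3 in 2X, within 5 kb. A depth of 20 reads or more was still found in 25 of 87 eligible neighbours at 5 kb before and 27 of 96 after. Around the windows of ordinary depth it was found in 51 of 1826 before and 57 of 1844 after. A CG level of 50% or more was found in 90.1% of the 81 eligible neighbours at 1 kb before the window and in 92.5% of the 80 at 1 kb after it. Around the CG-methylated windows of ordinary depth these shares were 86.8% before and 87.4% after. At 1 kb on each side 109 neighbours lay outside the set, so some positions gave no level. The median CHG level of the neighbours was 66.6% in 4X and 67.3% in 2X at 1 kb before the window, and 66.1% in 4X and 64.6% in 2X at 1 kb after it.

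**Figure D2:**
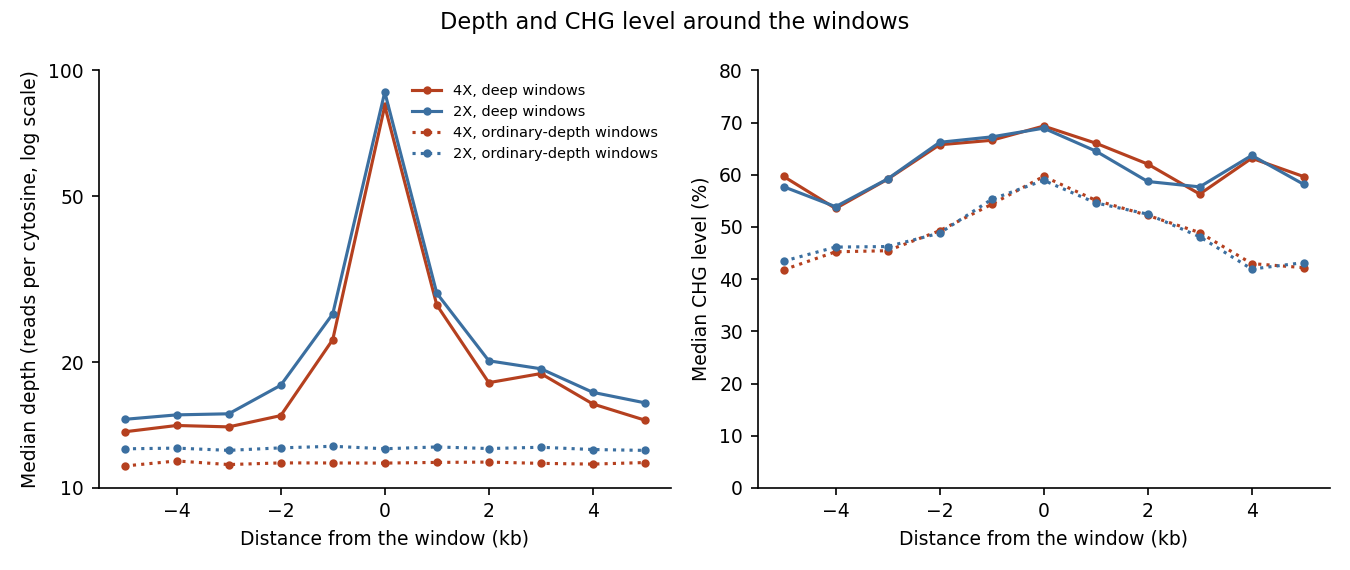
Median depth (reads, log axis, left) and median CHG level (%, right) of eligible windows at distances from −5 to +5 kb, for 4X and 2X, around the deep CG-methylated windows (solid lines) and around every 100th CG-methylated window of ordinary depth (dotted lines). Depth peaks at the window itself, at 82.3 reads in 4X and 88.8 in 2X, and drops to 22.7 in 4X and 26.1 in 2X at 1 kb before it, while the CHG level at that distance is 66.6% in 4X and 67.3% in 2X.

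Tandem repeat periods were common in the set. Because cytosines of both strands are listed, the files give the positions of C and G bases, and a repeat shows as a lag at which these positions recur. The autocorrelation of the listed positions reached 0.5 at some lag of 20 to 500 bp in 37 of 130 windows (28.5%), which 0.235% of all eligible windows reached. The windows are not independent of each other, so no interval is given for this share. It was reached in 569 of the 217253 CG-methylated windows of ordinary depth (0.262%), those with 6 to 20 reads in both lines and a CG level of 50% or more, and in none of the 381 deep windows with a CG level under 50%. At a minimum of 0.3 the share was 43.8% (background 1.96%) and at 0.7 it was 7.69% (background 0.0367%). Periods were thus a larger share of these windows than of the others, although most of the 870 eligible windows with a period lay outside the set. Deep windows list a larger part of their cytosines, and the part of that in these shares was not tested.

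The commonest lags of the highest autocorrelation among the 37 windows with a period were 107 bp (12 windows) and 187 bp (10 windows), picked after the lags were seen, and a short period of 7 bp was added in the same way. A window was assigned to a period when the autocorrelation reached 0.5 at a multiple of it, within 1 bp for the long periods. The 107 bp period was found in 16 of the 130 windows, the 187 bp period in 11, the 7 bp period in 3, another period in 8 and none in 92. As background, the centromeric satellite described in grapevine has a unit of 107 bases and the telomere repeat of most plants a unit of 7 bases, but without the sequence the windows cannot be assigned to either. Of all eligible windows with the 107 bp period, 5.59% of 286 were in the set, as were 8.73% of 126 with the 187 bp period and 5.88% of 51 with the 7 bp period. Of the 107 bp windows 11 of 16 lay on Un and 5 on assembled chromosomes, whereas all 11 of the 187 bp windows lay on assembled chromosomes. The strongest periodicity, an autocorrelation of 0.991 at a lag of 383 bp, was found at 21308001 to 21309000 of Un, with 152 reads in 4X and 172 in 2X. Its CG level was 79.3% in 4X and 77.7% in 2X, its CHG level was 62.2% in 4X and 64.7% in 2X, and its CHH level was 1.83% in 4X and 1.87% in 2X.

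**Figure D3:**
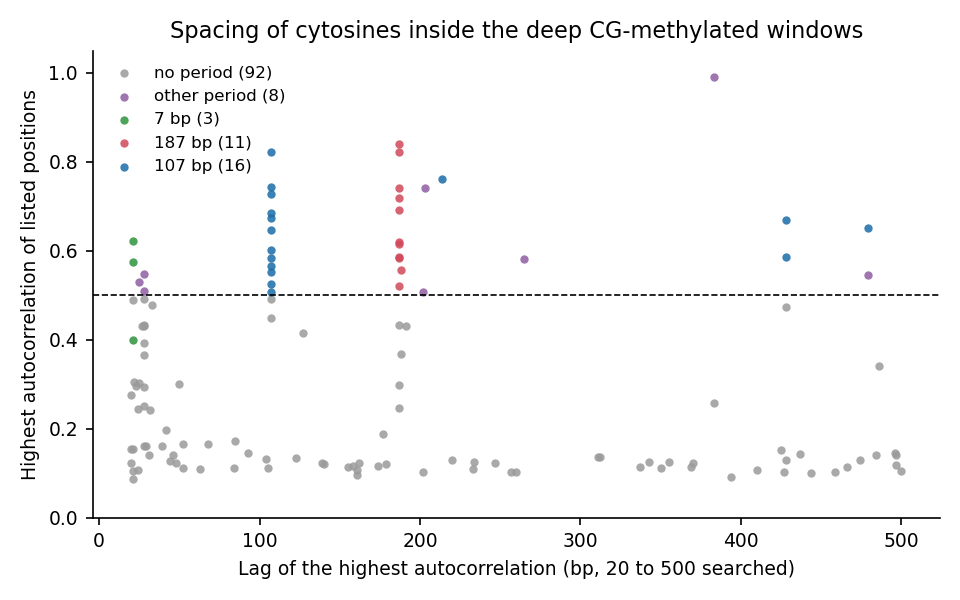
Lag (bp) and height of the highest autocorrelation of listed cytosine positions in the 130 windows, with the level of 0.5 that counts as a period drawn as a line. Of the 37 windows above it most gather at 107 bp, 187 bp and their multiples, and the highest value is 0.991 at 383 bp, while 1 of the 3 windows of 7 bp lies below the line because its period shows at lags under 20 bp.

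The depth ratio differed in size between the repeat families. Its median was 1.04 in the 107 bp windows, with 10 of 16 deeper in 4X, 0.962 in the 187 bp windows, with 2 of 11 deeper in 4X, and 1.03 in the 7 bp windows, with 3 of 3 deeper in 4X. Windows with another period had a median of 1.01, with 5 of 8 deeper in 4X, and those with no period 0.916, with 21 of 92 deeper in 4X. The eligible windows outside the set showed a similar order, with a median ratio of 1.01 over 270 windows of the 107 bp period and 0.940 over 115 of the 187 bp period. The windows with no period thus had a ratio close to that of all eligible windows, 0.914. A ratio over repeats does not give the number of copies in either line, and with 1 library per line a difference of copies and a difference of libraries cannot be told apart.

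Windows without a period also held patterns that recurred. The pattern of listed and unlisted positions in each stretch of 60 bp with at least 15 listed positions was looked up along all sequences, in either orientation. A stretch recurred when its pattern was found at any other position. Positions inside the same window counted too, so tandem copies within a window add to these shares. In the median deep CG-methylated window 43.7% of such stretches recurred, against 0% in every 100th CG-methylated window of ordinary depth, 2173 in all. No stretch recurred in 18 of 129 deep windows (14%), against 1104 of 2170 ordinary windows (50.9%). The median share was 52.1% in the 107 bp windows, 67.6% in the 187 bp windows, 40.7% in the 7 bp windows, 61.8% in those with another period and 36.2% in those with none. Neither a period nor a recurring stretch was found in 17 windows, so the measures of repetition did not reach every window of the set. A base that was not listed breaks a pattern, and listing is more complete in deep windows, a part that was not tested.

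Shared patterns also tied the windows to each other. At least 20 patterns in common linked 47 of the 130 windows into 9 groups, and 22 of the 47 had no period. The largest group held 16 windows, all on Un, of which 8 had the 107 bp period, 3 another period and 5 none. The next held 13 windows on 9 sequences, 9 with the 187 bp period and 4 with none. The 4 were found at 17030001 to 17031000, 17040001 to 17041000 and 17042001 to 17043000 of chromosome 2 and at 21225001 to 21226000 of Un, and were named after their values were seen. Their highest autocorrelation, 0.25 to 0.43, lay at lags of 187 and 188 bp and was under the minimum of 0.5. Windows in a group share sequence patterns and do not count as independent regions.

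CG methylation was high by the choice of the windows, and CHG methylation, which the choice did not use, was high in most of them as well. The median level over both lines was 88.5% for CG, 69.2% for CHG and 4.28% for CHH. In the CG-methylated windows of ordinary depth the median was 86.0% for CG, 59.01% for CHG and 2.85% for CHH. CG-methylated windows were also sorted by the lower of their 2 depths. Under 6 reads the medians were 72.2% for CHG and 4.89% for CHH, both above those of the deep windows. At 20 to under 30 reads they were 64.4% and 2.75%, and at 30 to under 60 reads 65.3% and 3.16%. The higher CHG and CHH medians were thus not particular to the deep windows. In the deep windows with a CG level under 50% the CG median was 5.78%, the CHG median 4.42% and the CHH median 0.490%. A CHG level under 10% was found in 2 of the 130 windows (1.54%), against 28.3% of the ordinary CG-methylated windows, and a level of 60 to under 80% in 73 (56.2%), against 35.8%. At 80% or more the shares were 13.1% in both. CHH levels under 2% were found in 26 of the deep windows (20%), against 40.1% of the ordinary windows, and levels of 50% or more in 4 (3.08%), against 0.0796%. The deep windows thus seldom had CG methylation without CHG methylation.

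**Figure D4:**
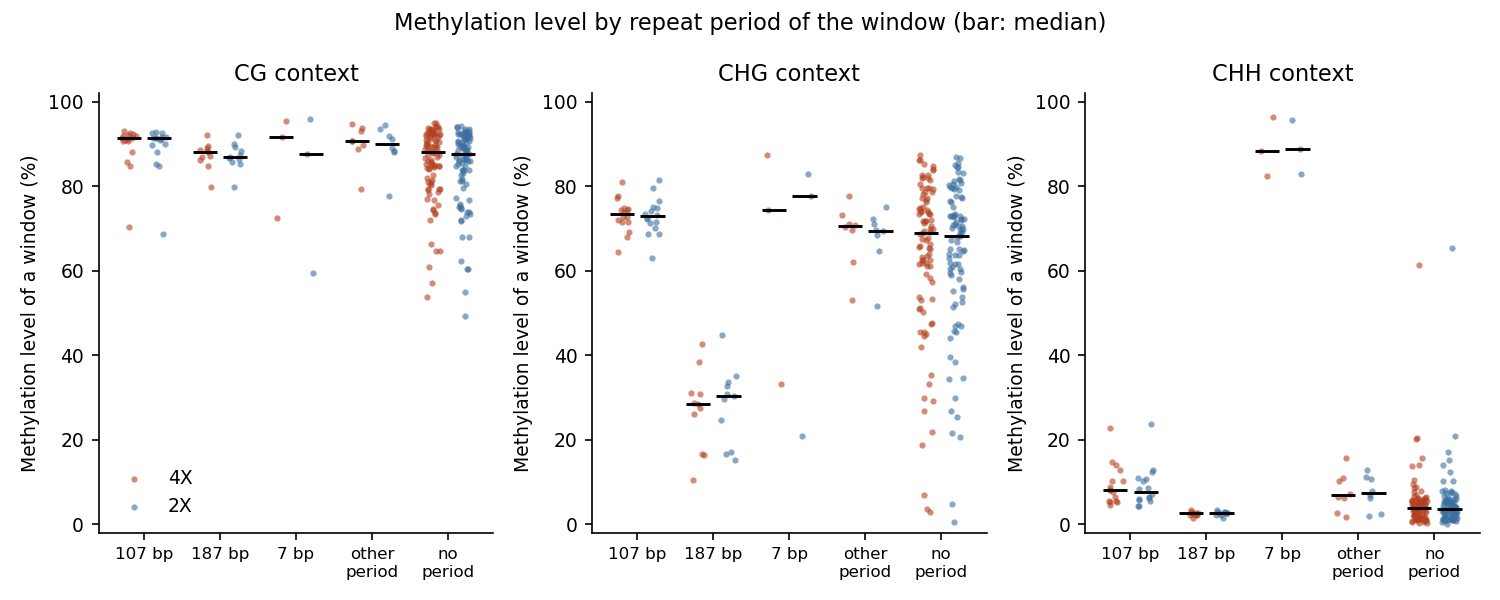
Methylation level (%) in CG, CHG and CHH of each deep CG-methylated window in 4X and in 2X, by repeat period, with a bar at the median of each column. The 187 bp windows sit low in CHG, with medians of 28.6% in 4X and 30.3% in 2X, and the 7 bp windows sit high in CHH, with 88.4% in 4X and 88.8% in 2X.

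The repeat families differed in CHG and CHH levels in both lines. The 107 bp windows were methylated in all 3 contexts, with CG medians of 91.4% in 4X and 91.4% in 2X, CHG medians of 73.4% in 4X and 72.9% in 2X, and CHH medians of 8.18% in 4X and 7.77% in 2X. Their CHG levels spanned 64.4 to 81.0% in 4X and 63.0 to 81.6% in 2X, and their CHH levels 4.53 to 22.8% in 4X and 4.32 to 23.7% in 2X. The 187 bp windows had CG medians of 88.1% in 4X and 86.9% in 2X, CHG medians of 28.6% in 4X and 30.3% in 2X, and CHH medians of 2.57% in 4X and 2.71% in 2X. Their CHG levels, at 10.6 to 42.6% in 4X and 15.2 to 44.8% in 2X, did not overlap with those of the 107 bp windows in either line. The families were compared over windows of 1 library per line that may hold copies of 1 repeat, so no test was made. A CHG level under 40% over both lines was found in 10 of the 11 windows of 187 bp, 0 of the 16 of 107 bp, and 10 of the 92 with no period.

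The difference between these families was also seen at ordinary depth, outside the set. There the CHG level was under 40% in 46 of 76 windows of the 187 bp period and in 0 of 178 of the 107 bp period. The 187 bp windows of ordinary depth had median CHG levels of 35.2% in 4X and 37.9% in 2X, and the 107 bp windows 75.6% in 4X and 75.5% in 2X. Depth therefore did not have to be high for the families to differ. In the group of 13 windows that shared patterns, however, the CHG level ranged from 16.7 to 79.1%, and the windows at 17030001, 17040001 and 17042001 of chromosome 2 had 66.5%, 77.2% and 78.6% in 4X, against 70.1%, 76.6% and 79.6% in 2X. Low CHG methylation was thus not shared by every window with these patterns.

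The 3 windows with a 7 bp period had the highest CHH levels but few CG reads. At 19330001 to 19331000 of chromosome 3, which lay 10786 bases from the last listed cytosine of the chromosome, the CHH level was 88.4% in 4X and 88.8% in 2X. There the mean depth was 1120 reads in 4X and 1020 in 2X over CHH cytosines, 47.1 in 4X and 56.6 in 2X over CHG, and 32.7 in 4X and 41.2 in 2X over CG. The depth of the window was thus that of its CHH cytosines. At 1912001 to 1913000 of chromosome 5 the CHH level was 96.5% in 4X and 95.7% in 2X, and at 21136001 to 21137000 of Un it was 82.5% in 4X and 82.9% in 2X. Their CG cytosines had depths of 8.50 reads in 4X and 8.67 in 2X on chromosome 5, and 17.2 in 4X and 12.5 in 2X on Un. These 2 windows were in the set through reads over CHH cytosines, and their CG levels rest on few reads. Cytosines that escape bisulfite conversion are also counted as methylated, and without a conversion rate the 2 cannot be told apart at such CHH levels. The 7 bp windows of ordinary depth outside the set had median CHH levels of 5.45% in 4X and 6.42% in 2X.

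A CHH level over 50% without a 7 bp period was found in 1 window. At 14222001 to 14223000 of chromosome 10 the CHH level was 61.3% in 4X and 65.3% in 2X, with a CG level of 91.1% in 4X and 87.6% in 2X, a CHG level of 65.1% in 4X and 64.6% in 2X, and a depth of 71.6 reads in 4X and 82.9 in 2X. It was chosen after its values were seen. Here the CHH level was about as high as the CHG level.

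At the extremes of CHG methylation the levels of the lines were close in absolute points. The highest levels were found at 5696001 to 5697000 of chromosome 15, with 87.6% in 4X and 86.8% in 2X, and at 41336001 to 41337000 of Un, with 86.2% in 4X and 87.0% in 2X. The lowest were found at 14662001 to 14663000 of Un, with 2.81% in 4X and 0.667% in 2X, and at 36759001 to 36760000 of Un, with 3.61% in 4X and 4.74% in 2X. The last 2 also had the lowest CHH levels, 0.311% in 4X and 0.139% in 2X in the first and 0.394% in 4X and 0.463% in 2X in the second. Their CG levels were 79.1% in 4X and 75.3% in 2X in the first, which rests on 43 reads in 4X and 89 in 2X, and 53.7% in 4X and 49.3% in 2X in the second. In these windows methylation was found in CG almost alone.

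CHG cytosines were mostly neither empty nor full. Among the 2137 CHG cytosines of the set with at least 60 reads in both lines, 55.2% in 4X and 57.4% in 2X had a level of 20 to 80%. For 2994 CG cytosines this share was 9.35% in 4X and 10.4% in 2X. The 11496 CHH cytosines had it at 4.76% in 4X and 4.71% in 2X. In CG-methylated windows of ordinary depth, CHG cytosines that happened to have 20 to 59 reads had it in 23.9% in 4X and 24.3% in 2X. At the same 20 to 59 reads the CHG cytosines of the set had it in 50.8% in 4X and 54.5% in 2X. Many of the ordinary ones were nearly empty, with a level under 20% in 52.6% in 4X and 52.4% in 2X. In the set this share was 8.91% in 4X and 7.15% in 2X. Reads of several copies and of several cells are summed at 1 position, so a level between these bounds does not show which of them differed.

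The levels of the contexts were also compared between windows. Over the 130 windows the CHG and CHH levels had a Pearson r of 0.118 and a Spearman rho of 0.517, against 0.577 and 0.853 over all eligible windows, and the CG and CHG levels had a rho of 0.475, against 0.608. The 130 windows were chosen on their CG level, whereas the eligible windows include unmethylated ones. The choice narrows the range of levels, so these values do not show a looser tie in the deep windows. The levels of the 2 lines ran together over the windows, with an r of 0.973 for CG, 0.984 for CHG and 0.998 for CHH.

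The levels of 4X and 2X were then compared, which asks whether genome duplication went with a change of methylation in these windows. Summed over all 130 windows, the CG level was 91.1% in the 4X library, with a Wilson interval of 91.0 to 91.1%, and 90.5% in the 2X library, with an interval of 90.4 to 90.5%, a difference of 0.567 points with a counting interval of ± 0.072. CHG methylation was 69.2% in 4X (69.1 to 69.3) and 68.6% in 2X (68.5 to 68.7), a difference of 0.605 ± 0.133 points. CHH methylation was 12.4% in 4X and 11.9% in 2X, a difference of 0.5005 ± 0.0482 points. These differences exceed a counting error that takes every base call as independent. Base calls of 1 read are not independent, so the intervals are too narrow, and the spread between libraries of 1 line was not measured. In the CG-methylated windows of ordinary depth the CG difference was 0.214 points, the CHG difference −0.476 points and the CHH difference −0.052 points.

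A few windows set the sizes of the CHG and CHH differences. The mean of the window levels differed by 0.133 points in CHG and by 0.0330 points in CHH. Without the 4 windows with a CHH level of 50% or more, CHH methylation was 5.48% in 4X and 5.28% in 2X, a difference of 0.208 ± 0.035 points. Without the deepest window the CHG difference was 0.470 points, and without the deepest 10% of the windows it was 0.154 points. The CG difference moved less, to 0.561 points without the deepest window and 0.529 points without the deepest 10%. Alternatives that left out the deepest window or the high CHH windows were chosen after seeing the data. Among the families, the 107 bp windows differed by 0.183 points in CG and 0.762 in CHG, and the 187 bp windows by −1.17 ± 1.20 points in CHG. Windows with no period differed by 0.652 points in CG and 0.554 in CHG. In CHH the difference was 0.129 points at 107 bp, −0.120 at 187 bp and −0.256 at 7 bp. With another period it was 0.549, and with none 0.126. Summed levels also depend on how reads are spread over windows. The 7 bp window of chromosome 3 had 211676 CHH reads in 4X and 192840 in 2X, at 88.4% in 4X and 88.8% in 2X. The part of that spread in the summed CHH difference was not tested.

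Most windows differed little between the lines. The CG difference was under 5 points in 126 of 130 windows, against 71% of the CG-methylated windows of ordinary depth. The CHG difference was under 5 points in 119 windows, against 71.5%, and the CHH difference in all 130, against 99.4%. Ordinary windows have fewer reads and hence more counting error, so the shares are not matched. CG methylation was higher in 4X in 84 of 130 windows (64.6%), against 48.6% of all eligible windows, CHG methylation in 76, against 44.9%, and CHH methylation in 59, against 45.7%. Among all eligible windows those with equal levels count as not higher, and unmethylated windows are included. The deep windows had no equal levels, so these shares are not matched either. The 95% Wilson interval of a window had a median half-width of 1.27 points for CG in 4X and 1.26 in 2X, 1.95 for CHG in 4X and 1.91 in 2X, and 0.293 for CHH in 4X and 0.283 in 2X. At this depth a difference of 10 points was measurable in most windows.

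A window was called when the two-sided Fisher exact test of its summed reads had an adjusted p under 0.05 over all eligible windows and the levels differed by at least 10 points. In CG 0 of 130 windows were called, where 1.43% of all eligible windows were called in either direction. An unadjusted p under 0.05 was found in 30 of the 130, and a Kruskal-Wallis test of the cytosine levels also called 0. By the Fisher test alone, with no minimum difference, 9 windows passed and all 9 were higher in 4X, where 1.99% of all windows passed and 1.14% passed in that direction. Their differences did not exceed 4.31 points. By size alone, with no test, 1 window differed by 10 points in CG (background 7.97%), the 7 bp window of chromosome 5. Deeper windows pass a test at smaller differences, so counts without a minimum difference are not comparable with the background. In CHH 0 of 129 windows were called (background 0.128%), and 21 passed by the Fisher test alone (background 11.4%) at differences of at most 4.07 points. An unadjusted p under 0.05 was found in 37. The Kruskal-Wallis test passed 13 with no minimum difference and 0 with it. For unadjusted p and for the Kruskal-Wallis test no share over all windows is given, so nothing about the set is read from these counts.

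In CHG 2 of 127 windows were called, both lower in 4X, where 1.85% of all tested windows were called in either direction and 0.967% as lower. The share of 2 in 127 is close to the background. With no minimum difference 10 windows passed in CHG (background 3.5%), and with a minimum of 5 points 5 did (background 2.63%). An unadjusted p under 0.05 was found in 34, again with no background share given. At 17036001 to 17037000 of chromosome 18 the CHG level was 7.05% in 4X (166 of 2355 reads, interval 6.08 to 8.15) and 25.4% in 2X (616 of 2425 reads, interval 23.7 to 27.2), with a Benjamini-Hochberg adjusted p of 2.35e-64 by Fisher's exact test. Of its 34 CHG cytosines 30 were lower in 4X, 1 was higher and 3 were equal, and the median cytosine level was 4.47% in 4X and 23.4% in 2X. The other contexts of this window differed little, with CG levels of 75.7% in 4X and 74.0% in 2X and CHH levels of 1.25% in 4X and 1.51% in 2X, and so did the depth, at 69.99 reads in 4X and 70.95 in 2X. No neighbour within 2 kb was eligible, so the extent of the difference was not measured.

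At 4074001 to 4075000 of chromosome 15 the CHG level was 42.0% in 4X (177 of 421 reads, interval 37.4 to 46.8) and 58.97% in 2X (286 of 485 reads, interval 54.5 to 63.3), with an adjusted p of 8.35e-05 by the same exact test. All 6 of its CHG cytosines were lower in 4X. The neighbouring windows were lower in CHG and differed less, with 21.9% in 4X and 24.7% in 2X at 1 kb before and 12.4% in 4X and 13.5% in 2X at 1 kb after. Cytosines on the same reads are not independent, which makes these p-values too small, and under the Kruskal-Wallis test of cytosine levels the window of chromosome 18 was called again and that of chromosome 15 was not.

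**Figure D5:**
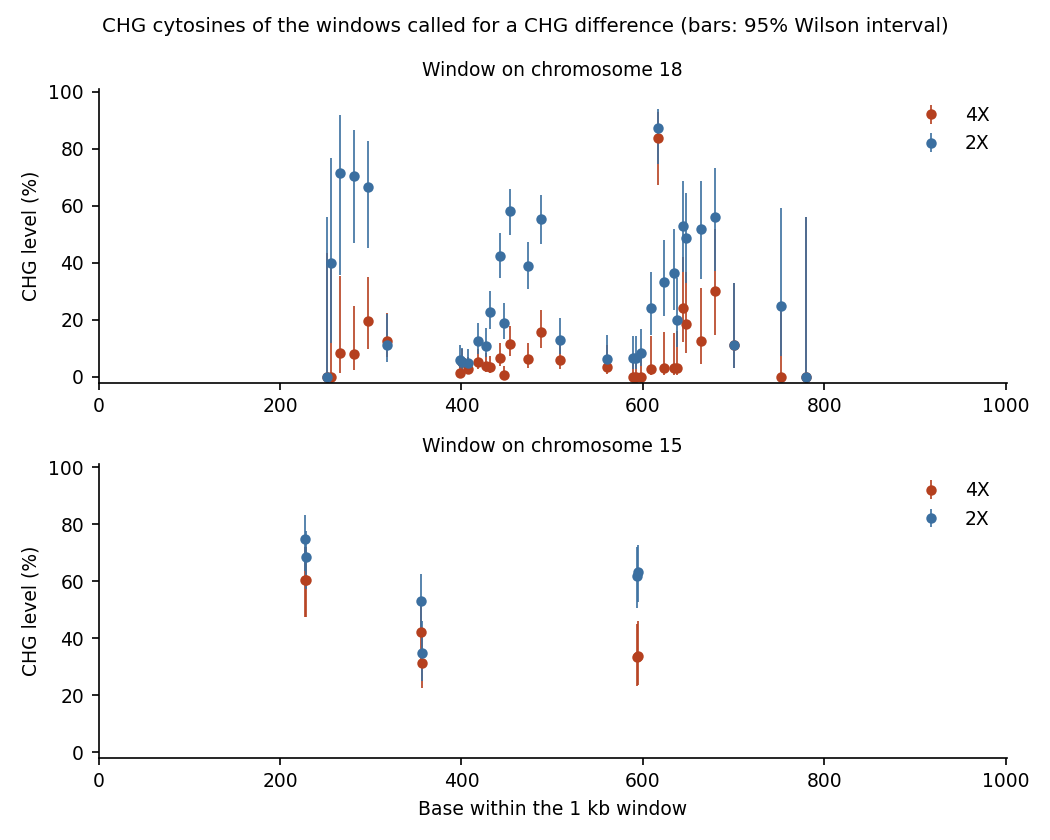
CHG level (%) of every shared CHG cytosine in the 2 windows called between the lines, on chromosome 18 (34 cytosines) and on chromosome 15 (6 cytosines), for 4X and 2X along the window (bp from its start), with 95% Wilson intervals as bars. In the first window 30 of 34 cytosines are lower in 4X, and in the second 6 of 6.

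Single cytosines gave few calls. By the Fisher exact test per cytosine, adjusted over all shared cytosines of a context, 1 of 5704 CG cytosines of the set was called, against a background of 0.023%. In CHG 6 of 3960 (0.152%) were called (background 0.00569%), and in CHH 0 of 23583 (background 8.81e-06%). An unadjusted p under 0.05 was found at 490 of these CHH cytosines (2.08%, background 0.291%). The CHG cytosines of the set had a median depth of 73 reads in 4X and 76 in 2X. Over all shared CHG cytosines it was 10 in 4X and 10 in 2X. Deeper cytosines pass the test at smaller differences, so the shares are not comparable with the background. The CG cytosine lay at position 18715337 of chromosome 2 and had 91.2% in 4X and 87.8% in 2X, with 4752 reads in 4X and 4448 in 2X, which is far above the depth of most cytosines. All 6 CHG cytosines were lower in 4X and lay in the called window of chromosome 18, for example position 17036453 with 11.5% of 139 reads in 4X and 58.0% of 143 reads in 2X. These positions were named after their values were seen.

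At cytosines with at least 60 reads in both lines the differences were little wider than counting error. For CG the standard deviation of the 4X minus 2X difference was 3.82 points, where counting error alone gives 3.43. It was 5.47 points for CHG, where counting error gives 4.71, and 2.58 points for CHH, where it gives 2.30. In CHG 12 of 2137 such cytosines differed by 20 points or more, in CHH 4 of 11496 did, and in CG 0 of 2994 did.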

How the data were processed

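Terminal buds of the tetraploid (4X) and the diploid (2X) 'Jingyanjing' were analysed by whole-genome bisulfite sequencing, with 1 library per line grouped by the labels. According to its methods, the authors dropped low-quality reads and aligned read pairs with software spelled Bimark. The sources used here give neither its version nor the genome build, the conversion rate or the treatment of duplicates. The deposited counts give methylated and unmethylated reads for each cytosine and strand, at least 3 in all, with no normalization. The deposited level is a percent and equalled methylated over all reads in every line.

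Cytosines listed in both files, as the study used, were summed in 1 kb windows. The members and lists were chosen with earlier results of these data known. Levels have 95% Wilson intervals, which take base calls as independent and are too narrow where 1 read covers several cytosines. Windows were compared by a two-sided Fisher exact test of summed reads with Benjamini-Hochberg adjustment within each context, over all eligible windows with at least 5 cytosines of the context. Tests were checked on simulated data. Named windows were the 5 longest runs, the 3 highest and 3 lowest depth ratios, the 2 deepest windows, the 2 highest and lowest CHG and CHH levels, called windows, the highest autocorrelation, and windows beside each threshold. Alternatives changed thresholds, depth and level summaries, sequences included and the test. No genome of the build was used, so no sequence is given. Python 3.11.15, numpy 2.4.6, pandas 2.3.3, scipy 1.17.1, numba 0.67.0 and matplotlib 3.10.9 were used.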

Additional observations from a re-analysis of the deposited data

Results flagged for a closer look

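Cytosines of the deep CG-methylated windows that were listed for only 1 line took no part in the comparisons, and they carried methylation well above what a count of 0 would allow. Those listed only in 4X had levels of 83.8% in CG (232 cytosines, 95% Wilson interval 81.3 to 86.0), 49.3% in CHG (133 cytosines, 45.3 to 53.2) and 6.46% in CHH (972 cytosines, 5.77 to 7.23). Those listed only in 2X had 87.3% in CG (197 cytosines, 84.8 to 89.4), 63.8% in CHG (125 cytosines, 59.5 to 67.8) and 6.61% in CHH (854 cytosines, 5.86 to 7.46). A count of 0 would allow at most 0.312% in CG, 0.499% in CHG and 0.069% in CHH in 4X, and 0.371%, 0.587% and 0.080% in 2X. The windows were chosen on a high CG level, so for CG the comparison with a count of 0 is no test. The CHG levels of the lines concern different cytosines, so their difference was not tested.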

How the results depend on the processing

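Over 13 results 71 alternatives were tried, of which 36 left the value in place and 35 moved it. No difference in level turned its sign, but the depth ratio crossed 1. The 130 windows became 554 at a depth minimum of 40 reads, 65 at 80 and 42 at 100, 74 on assembled chromosomes only, and 71 when the median depth had to reach 60 (chosen after seeing the data). The median depth ratio of 0.941 was 1.03 after division by the ratio of all windows, 1.017 from summed depths and 1.018 at a depth minimum of 100, 0.955 from median depths, 0.928 on chromosomes only and 0.928 without the deepest 10%. After seeing the data, it was also taken in windows with none of the 3 periods (0.924) and in 107 bp windows (1.04). The ratio was thus below 1 as the median of unscaled ratios, and above 1 when scaled, from summed depths, at a depth minimum of 100 and in 107 bp windows.

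The CG difference of 0.567 points was 0.752 as a mean of windows and 0.387 as a mean of cytosines. The CHG difference of 0.605 was 0.133 as a mean of windows, 0.278 on chromosomes, 0.154 without the deepest 10%, 0.774 at a depth minimum of 100 and 0.470 without the deepest window. The CHH difference of 0.5005 was 0.0330 as a mean of windows, 0.0503 as a mean of cytosines, 0.960 on chromosomes, 0.266 without the deepest 10%, 0.237 at a depth minimum of 100, 0.731 without the deepest window and 0.208 without the windows of high CHH level. The 0 CG calls became 1 by size alone, and the 1 CG cytosine 0 at 20 points. The 2 CHG calls became 5 at 5 points, 0 at 20 points and 1 by the Kruskal-Wallis test. The share with a tandem period, 28.5%, was 43.8% at an autocorrelation of 0.3, 7.69% at 0.7 and 2.31% at lags of 7, 14 and 21 alone. Except where the windows included differ, the cause was not tested.

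No paired analysis was possible because 4X and 2X each came as a lone library. A limit on windows listing 95% of their cytosines was not run, since it needs a genome. Depth limits the levels of windows with few reads in a context, where the interval reached ± 11.9 points in 4X and ± 12.9 in 2X for CG.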
